A study of Homo sapiens with 6 samples.

Results

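Epithelial markers and factors of the epithelial-mesenchymal transition (EMT) were examined in 4 cell lines of atypical teratoid rhabdoid tumor (AT/RT), an embryonal brain tumor of early childhood defined by loss of SMARCB1, a core subunit of the SWI/SNF chromatin remodeling complex. The 10 genes were taken by symbol out of 36532 genes measured, and each symbol matched 1 gene identifier. They were 4 keratins (KRT7, KRT8, KRT18 and KRT19), 3 epithelial adhesion and membrane antigen genes (CDH1, EPCAM and MUC1) and 3 transition factors (ZEB1, SNAI2 and TWIST1). The 4 lines, CHLA 02 and CHLA 04 to CHLA 06, come from a public cell bank, and all were cultured in DMEM:F12 medium with EGF, basic FGF and B-27, with no treatment given in the labels. CHLA 02 and CHLA 05 had 1 library each, CHLA 04 and CHLA 06 had 2 technical replicates each, and no line had a second biological sample. The values therefore describe these libraries, no test between lines was possible, and the spread between cultures of a line was not measured.

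Keratins are the intermediate filament proteins of epithelial cells, in which a type II keratin such as KRT7 or KRT8 pairs with a type I keratin such as KRT18 or KRT19. Simple epithelia also hold E-cadherin (CDH1) at their junctions, the adhesion protein EPCAM on their sides and the mucin MUC1 (epithelial membrane antigen) on their free surface. ZEB1, SNAI2 and TWIST1 are transcription factors known for repressing CDH1 and other epithelial genes during EMT. Rhabdoid tumors are known in pathology for mixed staining, with vimentin, keratins and epithelial membrane antigen in the same tumor.

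The libraries held 10265899 to 20520229 reads on transcripts, so that 1 read on a transcript of 1 kb was worth 0.117 to 0.236 TPM (a level scaled by transcript length and library total). TPM was summed over all transcripts of each gene. Intervals are 95% Wilson intervals from recovered reads and cover counting error only. SMARCB1, which defines the disease, was listed at 13.5 TPM in CHLA 02, 26.2 and 22.2 for the CHLA 04 replicates, 16.3 for CHLA 05, and 17.3 and 16.2 for the CHLA 06 replicates, so reads of the gene were present in every library. The files do not show whether these give an intact transcript or a protein.

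The CHLA 02 library lay between those of CHLA 04 and CHLA 06 for most genes that separated the other 2 lines. Of 2316 genes that differed at least 4-fold between CHLA 06 and CHLA 04, 2144 (92.6%) had an intermediate TPM in CHLA 02, with a median position of 0.63 (quartiles 0.455 and 0.783) on a linear TPM scale from 0 at CHLA 04 to 1 at CHLA 06. By comparison, CHLA 05 was intermediate for 69.9% of the same genes. CHLA 02 exceeded every other line by 4-fold at 1 gene (MX1, an interferon-induced gene named after its values were seen) and fell below every other line at 0 genes. CHLA 04, CHLA 05 and CHLA 06 exceeded every other line at 37, 362 and 33 genes, and fell below every other line at 169, 81 and 434. The TPM of CHLA 02 was also intermediate for 8 of the 9 epithelial and EMT genes with reads, so values are given with and without CHLA 02 where they rest on it. Of these, EPCAM, MUC1 and SNAI2 did not differ 4-fold between CHLA 06 and CHLA 04. The counting intervals of CHLA 02 overlapped those of CHLA 06 at KRT18, EPCAM and SNAI2, and those of CHLA 04 at MUC1. Whether this library or its culture held material of more than 1 line was not tested, and each CHLA 02 value is to be read with that limit.

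**Figure D1:**
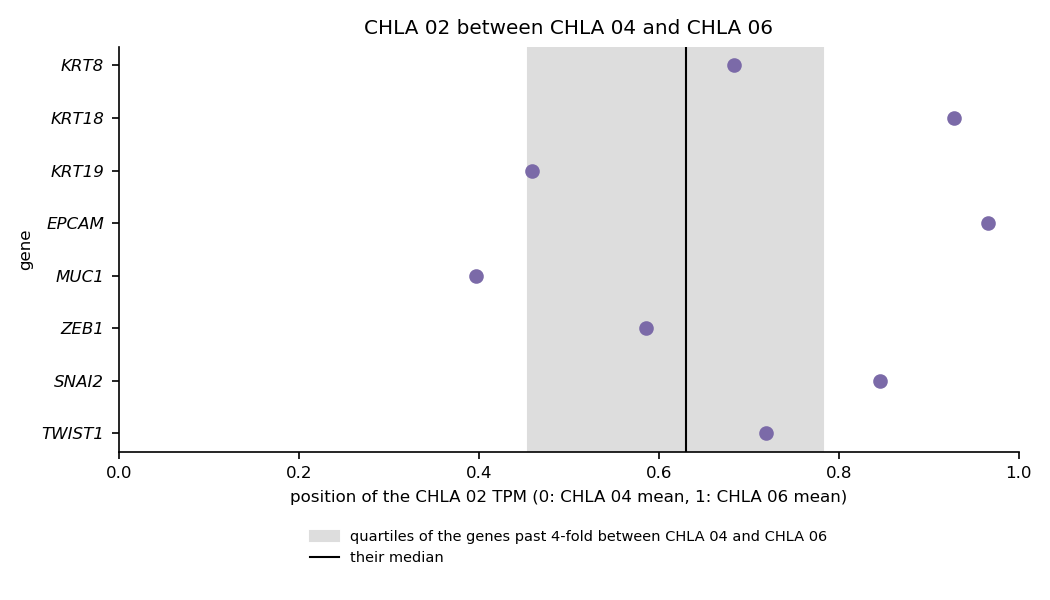
Position of the CHLA 02 TPM on a linear scale from the CHLA 04 mean (0) to the CHLA 06 mean (1) for 8 genes (points), with the median (line) and quartiles (grey band) of the 2316 genes past 4-fold between those lines. EPCAM, MUC1 and SNAI2 are drawn but are not among those 2316 genes. The points run from 0.397 for MUC1 to 0.966 for EPCAM and the band spans 0.455 to 0.783, while CDH1, the ninth gene with reads, lay outside the ends at -0.42 and is not drawn (0 reads in CHLA 02, 1 in CHLA 04 and 3 in CHLA 06).

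ZEB1, SNAI2 and related factors are known to bind the E-box CACCTG, which reads CAGGTG on the other strand, and start-site windows are shown to give the sequence in which such a box would lie. RefSeq entries (GRCh38.p14, from 250 bases before to 50 bases after a start) matched 3 of the 10 genes, with 10 windows in all, 7 of them for ZEB1, 2 for MUC1 and 1 for KRT8. For CDH1, EPCAM, KRT7, KRT18, KRT19, TWIST1 and SNAI2 no sequence is shown. Capitals mark the E-box letters on either strand, and all sequences run 5′ to 3′ along the gene.
MUC1, chr1:155192866-155193165, minus strand: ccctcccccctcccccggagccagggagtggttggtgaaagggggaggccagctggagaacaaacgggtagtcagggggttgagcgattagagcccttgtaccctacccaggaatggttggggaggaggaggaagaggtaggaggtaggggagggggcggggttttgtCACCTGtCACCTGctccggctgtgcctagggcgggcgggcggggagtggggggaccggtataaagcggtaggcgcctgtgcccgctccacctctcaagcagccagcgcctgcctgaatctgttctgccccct
ZEB1, chr10:31318966-31319265, plus strand: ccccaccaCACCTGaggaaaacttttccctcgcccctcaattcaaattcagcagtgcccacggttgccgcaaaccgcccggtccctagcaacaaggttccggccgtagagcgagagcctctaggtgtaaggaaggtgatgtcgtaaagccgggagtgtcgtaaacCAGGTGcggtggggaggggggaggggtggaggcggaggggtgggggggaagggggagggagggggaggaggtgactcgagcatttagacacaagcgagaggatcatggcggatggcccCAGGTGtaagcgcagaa
KRT8, chr12:52926420-52926719, minus strand: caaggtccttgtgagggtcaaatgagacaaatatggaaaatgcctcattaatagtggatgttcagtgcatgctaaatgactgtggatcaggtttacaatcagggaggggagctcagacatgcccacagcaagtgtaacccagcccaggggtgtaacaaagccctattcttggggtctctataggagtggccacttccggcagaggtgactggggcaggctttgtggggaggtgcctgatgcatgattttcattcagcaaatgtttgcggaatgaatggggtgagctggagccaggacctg
The MUC1 window held 2 boxes, at positions -82 and -75 from the start, separated by a single base. This ZEB1 window held 3 boxes, at positions -242, -85 and 33, another ZEB1 window held 1, and the other 5 held none. The KRT8 window, which lies inside the KRT8 span, held 0. The protein_coding transcript with the most KRT8 reads starts elsewhere, at chr12:52949842, so this window does not show the sequence at that start. Over all 35116 RefSeq windows of this length, 20.6% held at least 1 box and 3.49% held 2 or more, and a match describes letters only.

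The epithelial and EMT genes divided the 4 lines into different combinations rather than into 1 epithelial and 1 mesenchymal group. CHLA 06 and CHLA 02 had KRT8, KRT18, KRT19 and a little EPCAM without CDH1, CHLA 05 had CDH1 without these keratins, and CHLA 04 had none of these at 1 TPM or more. At a TPM of 1 or more, CHLA 02 had 8 of the 10 genes detected, CHLA 06 had 7, CHLA 05 had 4 and CHLA 04 had 3. Of all 36532 genes, CHLA 02 had 39.7% detected, CHLA 06 had 37.3%, CHLA 05 had 39.2% and CHLA 04 had 38.7%, so the lines differed little in that share. MUC1 and ZEB1 were detected in every line, and KRT7 in none.

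**Figure D2:**
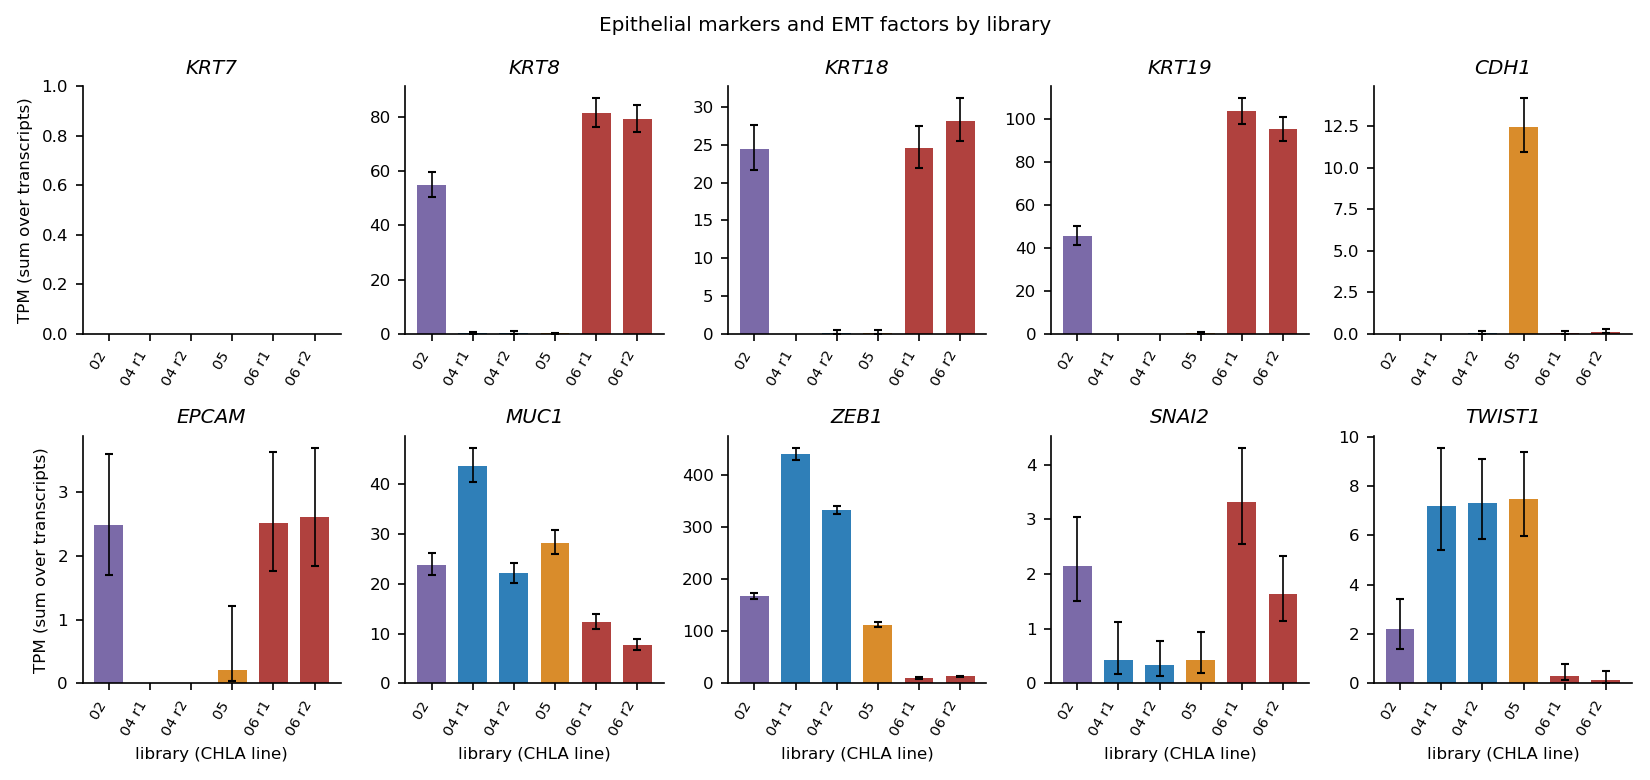
TPM of each gene (panels, each with its own linear axis from 0) in the 6 libraries, with 95% Wilson intervals (counting error) where reads were present and r1 and r2 as technical replicates. KRT8, KRT18, KRT19 and EPCAM stand in CHLA 02 and CHLA 06, CDH1 in CHLA 05, and ZEB1 ranges from 10.5 to 440 TPM.

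KRT7 (ENSG00000135480, GRCh38 chr12:52232520-52252186, plus strand) had 0 reads in all 6 libraries over its 13 transcripts. A count of 0 allows up to 3 reads, which on its longest transcript are worth 0.200 to 0.404 TPM per library and on a shorter transcript more. KRT7 was the gene of the 10 that did not reach 1 TPM in any library, so 9 passed the filter used for the background of differences.

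KRT8 (ENSG00000170421, chr12:52897187-52949954, minus strand), the type II keratin of simple epithelia, was at 55.1 TPM in CHLA 02 (537 reads, interval 50.6 to 59.9), 0.111 and 0.188 for the CHLA 04 replicates (1 read each), 0.0721 for CHLA 05 (1 read), and 81.6 and 79.3 for the CHLA 06 replicates (863 and 971 reads). CHLA 06 was highest and CHLA 02 next, with no overlap of their ranges, while CHLA 04 and CHLA 05 could not be separated. That order depended on the transcripts summed. Retained introns held 39.3% of the KRT8 TPM in CHLA 06 and 16.4% in CHLA 02. On protein_coding transcripts KRT8 was at 35.4 TPM in CHLA 02 and at 33.0 and 40.7 for the CHLA 06 replicates, so those lines overlapped. With the most abundant transcript of each library, CHLA 02 was higher by 0.056 on the log2(TPM + 1) scale, but that transcript differed between these libraries. On ENST00000552551, the most abundant in CHLA 02, KRT8 was at 13.6 TPM there and at 9.97 and 9.69 for the CHLA 06 replicates. By share of library reads over all its transcripts, CHLA 06 was 645 times CHLA 04 (exact binomial interval 178 to 5329, with 1834 reads against 2).

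KRT18 (ENSG00000111057, chr12:52948871-52952901, plus strand), the type I partner of KRT8, was at 24.5 TPM in CHLA 02, 0 and 0.0854 for the CHLA 04 replicates, 0.0734 for CHLA 05, and 24.6 and 28.2 for the CHLA 06 replicates. CHLA 02 and CHLA 06 overlapped, as did CHLA 04 and CHLA 05, and the 2 pairs of lines stood apart. The KRT8 and KRT18 spans lie head to head and share 1084 bases on opposite strands. The library kit kept strand, but whether the counting used it is not given in the sources used here, so reads from the shared bases could count for either gene. KRT18 in CHLA 06 was 470 times CHLA 04 by share of library reads (84.1 to 18610, 669 reads against 1).

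KRT19 (ENSG00000171345, chr17:41523617-41528308, minus strand), a type I keratin of ductal and glandular epithelia, was at 45.7 TPM in CHLA 02, 0 and 0 for the CHLA 04 replicates, 0.11 for CHLA 05, and 104 and 95.3 for the CHLA 06 replicates. CHLA 06 was at 2.17 times CHLA 02 by share of library reads (1.95 to 2.41), against 1.42 times (1.29 to 1.57) for KRT8 and 1.09 times (0.943 to 1.27) for KRT18. Against the 0 reads of CHLA 04, set to 3 reads over its libraries, CHLA 06 was at least 517-fold higher and CHLA 02 at least 238-fold higher. Without CHLA 02, all 3 keratins were detected in CHLA 06 alone among the remaining lines.

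Keratin families hold near-identical pseudogenes, to which reads can be misassigned. The 5 annotated KRT8 pseudogenes summed to 1.29 to 4.31 TPM and were highest in a CHLA 04 library, where KRT8 itself had 1 read. KRT8P12 gave 1.29 to 4.21 TPM of that. The 5 KRT18 pseudogenes summed to 0.365 to 1.62 TPM, led by KRT18P59 at 0.269 to 1.35 TPM, again highest in CHLA 04. The pseudogene levels therefore did not follow their parent genes across the libraries.

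Of the 62 other keratin symbols (63 gene identifiers), 44 had no read in any library and 2 reached 1 TPM. KRT10, a keratin of the epidermis, was at 8.24 TPM in CHLA 02, 2.45 and 7.57 for the CHLA 04 replicates, 10.8 for CHLA 05, and 8.46 and 7.50 for the CHLA 06 replicates. KRT75, a keratin of the hair follicle, reached 3.76 TPM in CHLA 05 and 0.916 and 1.56 TPM in the CHLA 04 replicates, with none in CHLA 02 or CHLA 06. KRT16 reached 0.821 TPM in CHLA 05 and KRT222 reached 0.930 TPM in a CHLA 06 library. Neither KRT10 nor KRT75 was thus highest where KRT8, KRT18 and KRT19 were.

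CDH1 (ENSG00000039068, chr16:68737225-68835548, plus strand), E-cadherin, was at 0 TPM in CHLA 02, 0 and 0.0297 for the CHLA 04 replicates, 12.4 for CHLA 05 (222 reads, interval 10.9 to 14.2), and 0.0264 and 0.0739 for the CHLA 06 replicates. CHLA 05 was apart from the other lines, which did not differ beyond their ranges. By share of library reads CHLA 05 was 374 times CHLA 04 (66.5 to 14846, 222 reads against 1), 177 times CHLA 06 (59.9 to 867, 222 against 3) and at least 73.8-fold higher than CHLA 02, whose 0 reads were set to 3. The flanking genes CDH3 (0.238 to 2.26 TPM) and TANGO6 (18.3 to 29.3 TPM) were not confined to CHLA 05.

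The CDH1 reads of CHLA 05 were spread over 12 of 14 transcripts, and no transcript held more than 13.4% of the gene TPM. The 2 transcripts of type protein_coding in GENCODE 44 held 16.7%, and the full-length ENST00000261769 (4889 bases, 16 exons) held 1.07 TPM from 34 reads. Transcripts of type nonsense-mediated decay held 27.6%, those not listed in GENCODE 44 held 26.1%, those without a defined coding sequence 20.5% and retained introns 9.05%. The 4-fold calls of CDH1 came from the sum over transcripts: with its protein_coding transcripts alone the difference between CHLA 05 and CHLA 04 was 1.62 on the log2(TPM + 1) scale. With the most abundant transcript of each library, not always the same transcript, the difference was 1.39. By share of library reads, the 51 protein_coding reads of CHLA 05 were still at least 28.7-fold above CHLA 04 and at least 16.9-fold above CHLA 02 (0 reads set to 3), since the pseudocount of 1 shrinks a level of 2.08 TPM.

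EPCAM (ENSG00000119888, chr2:47345158-47387601, plus strand), an adhesion protein of epithelial and progenitor cells, was at 2.47 TPM in CHLA 02 (27 reads), 0 and 0 for the CHLA 04 replicates, 0.215 for CHLA 05 (1 read), and 2.52 and 2.60 for the CHLA 06 replicates (29 and 31 reads). It had reads in the same lines as the keratins, CHLA 02 and CHLA 06 overlapped, and the levels were low. CHLA 06 was at least 14.1-fold and CHLA 02 at least 15.2-fold above CHLA 04 by share of library reads (0 reads set to 3), although the differences of 1.83 and 1.8 on the log2(TPM + 1) scale stayed under 4-fold because the pseudocount shrinks changes of low genes. Of 4 LTR elements inside the EPCAM span, 3 had reads, and an MLT2F element (chr2:47346850-47347408, plus strand) had 5 in CHLA 02, 1 and 0 for the CHLA 04 replicates, 3 for CHLA 05, and 18 and 13 for the CHLA 06 replicates.

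MUC1 (ENSG00000185499, chr1:155185824-155192916, minus strand), whose product is epithelial membrane antigen, was the epithelial gene found in every line. It was at 23.9 TPM in CHLA 02, 43.7 and 22.1 for the CHLA 04 replicates, 28.3 for CHLA 05, and 12.4 and 7.75 for the CHLA 06 replicates. CHLA 06, the line with the highest keratins, had the lowest MUC1 and stood apart from the other lines, whose neighbors in the order overlapped. The technical replicates of CHLA 04 differed by 0.95 on the log2(TPM + 1) scale, and no gene of the 10 differed more between technical replicates. By share of library reads CHLA 04 was 3.34 times CHLA 06 (2.99 to 3.73), but its replicates alone gave 5.11 and 2.29 times, both outside that interval of counting error.

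Between 56.3% and 71% of the MUC1 TPM lay on 1 transcript, ENST00000611571 (4170 bases, 11 exons), which GENCODE 44 does not list. Its 18 protein_coding transcripts held 8.41% (CHLA 04) to 24.2% (CHLA 06). On these the lines did not stand apart: MUC1 was at 3.49 TPM in CHLA 02, 3.08 and 2.46 for the CHLA 04 replicates, 4.04 for CHLA 05, and 3.03 and 1.84 for the CHLA 06 replicates (11 to 25 reads per library). CHLA 06 minus CHLA 04 was then -0.13 on the log2(TPM + 1) scale, against -1.62 over all transcripts. MUC1 holds a tandem repeat, and RP11-201K10.3, at 2.75 to 10.8 TPM, overlaps it on the same strand by 1449 bases, so the division of reads there is uncertain. TRIM46, whose span ends 853 bases away, was at 23.0 to 53.8 TPM.

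**Figure D3:**
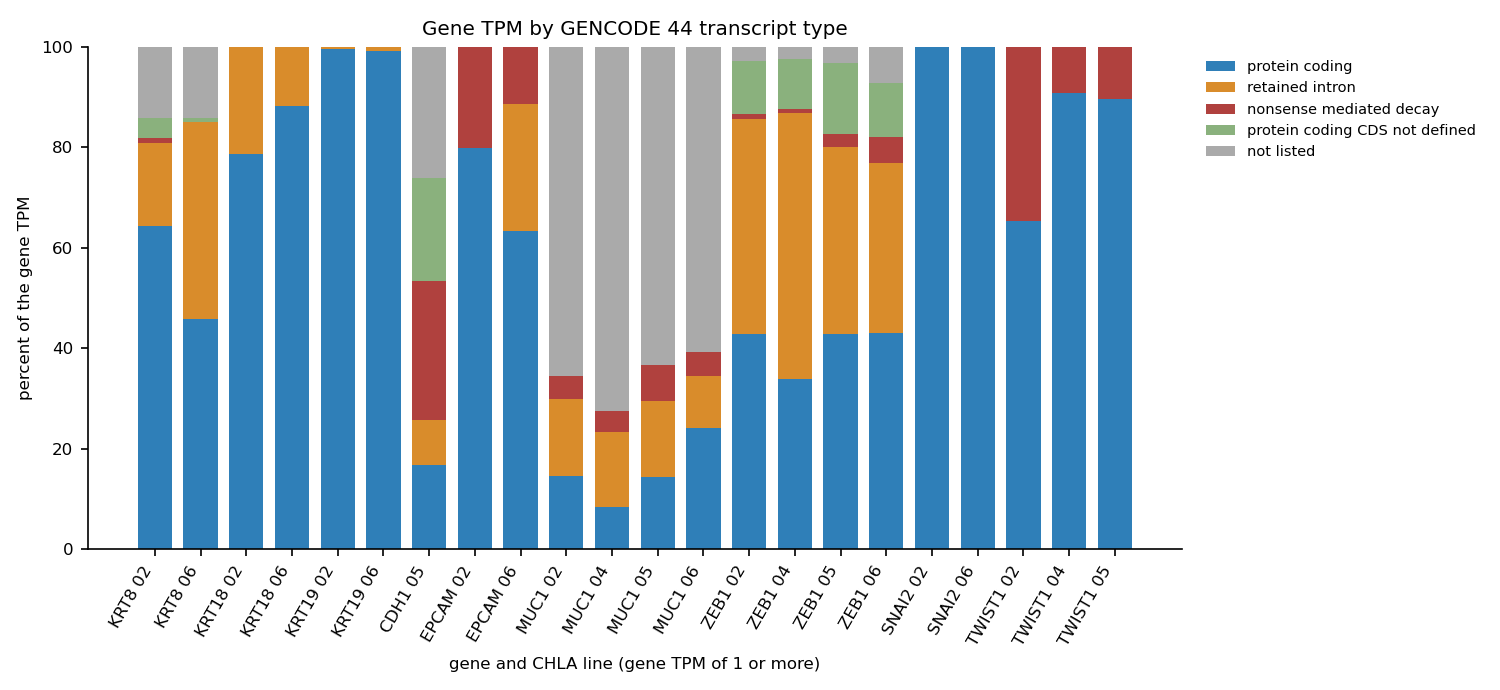
Share of the gene TPM (percent, stacked to 100) on each GENCODE 44 transcript type, for each gene and line with a gene TPM of 1 or more. KRT19 and SNAI2 lie almost wholly on protein-coding transcripts, CDH1 in CHLA 05 has 16.7% there, and MUC1 has 60.7% to 72.4% on transcripts not listed.

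ZEB1 (ENSG00000148516, chr10:31318495-31529814, plus strand), a zinc finger and homeobox repressor of epithelial genes, was the most abundant of the 10 in every line but CHLA 06. It was at 167 TPM in CHLA 02, 440 and 333 for the CHLA 04 replicates, 113 for CHLA 05, and 10.5 and 13.4 for the CHLA 06 replicates. All 4 lines stood apart in the order CHLA 04, CHLA 02, CHLA 05 and CHLA 06, with means of 386 ± 76.0 (SD, n = 2 technical replicates) in CHLA 04 and 12 ± 2.1 in CHLA 06. By share of library reads CHLA 04 was 30.6 times CHLA 06 (28.2 to 33.2), CHLA 02 was 15.3 times (14.1 to 16.7) and CHLA 05 was 9.74 times (8.90 to 10.7).

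In CHLA 06 low ZEB1 thus stood beside high KRT8, KRT18 and KRT19, and in CHLA 04 high ZEB1 beside their near absence, while CHLA 02 had both ZEB1 and these keratins. CHLA 05 had CDH1 together with 113 TPM of ZEB1. In bulk RNA, different fractions of cells and different RNA per cell cannot be told apart, so the same cells may or may not hold both. In CHLA 02 the library or culture itself may also be mixed, which was not tested. All 25 ZEB1 transcripts had reads, with 33.9% to 43.1% of the TPM on the 7 protein_coding ones and 33.8% to 52.9% on retained-intron transcripts.

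ZEB1-AS1, the antisense neighbor of ZEB1, overlaps its span by 1953 bases and was at 5.43 TPM in CHLA 02, 26.1 and 10.8 for the CHLA 04 replicates, 10.1 for CHLA 05, and 1.35 and 2.83 for the CHLA 06 replicates. Both were lowest in CHLA 06 and highest in CHLA 04. In the separate LTR readout, the ZEB1 span held 6 LTR elements, 3 of them with reads. An MLT1D element (chr10:31434958-31435422, plus strand, 465 bases) had 30 reads in CHLA 02, 53 and 44 for the CHLA 04 replicates, 10 for CHLA 05, and 2 and 4 for the CHLA 06 replicates. These few reads, out of 355302 to 511408 on LTR elements per library, followed the order of ZEB1 itself, and reads from the ZEB1 RNA and from the element cannot be told apart.

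SNAI2 (ENSG00000019549, chr8:48917690-48921740, minus strand), the factor Slug, was at 2.15 TPM in CHLA 02 (31 reads), 0.435 and 0.332 for the CHLA 04 replicates (4 and 5 reads), 0.431 for CHLA 05 (6 reads), and 3.32 and 1.63 for the CHLA 06 replicates (55 and 30 reads). It was higher in the lines with keratins, where CHLA 06 and CHLA 02 overlapped. CHLA 06 was 6.64 times CHLA 04 by share of library reads (3.34 to 15.0). Both of its transcripts were protein_coding and both had reads.

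TWIST1 (ENSG00000122691, chr7:19020991-19117672, minus strand), a basic helix-loop-helix factor of mesenchyme and neural crest, was at 2.20 TPM in CHLA 02 (19 reads), 7.19 and 7.30 for the CHLA 04 replicates, 7.50 for CHLA 05, and 0.31 and 0.141 for the CHLA 06 replicates (4 and 2 reads). CHLA 04 and CHLA 05 overlapped and stood above CHLA 02, which stood above CHLA 06. By share of library reads CHLA 04 was 30.1 times CHLA 06 (13.5 to 83.6), from 127 reads against 6. HDAC9, the next gene, was at 69.2 TPM in CHLA 02, 131 and 75.6 for the CHLA 04 replicates, 58.4 for CHLA 05, and 0.056 and 0.257 for the CHLA 06 replicates, so that both neighbors were near 0 in CHLA 06. SNAI2 thus ran opposite to ZEB1 and TWIST1 between CHLA 06 and CHLA 04.

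Differences between lines were counted past 4-fold, that is 2 on the log2(TPM + 1) scale, beside the share of all 16343 genes with 1 TPM or more in a library. Between technical replicates, 0.196% of these genes passed in CHLA 04 and 0% in CHLA 06, and none of the 10 genes did. CHLA 06 exceeded CHLA 04 at 3 of the 10 genes (KRT8 by 6.15, KRT18 by 4.72 and KRT19 by 6.65) and was below it at 2 (ZEB1, -4.90, and TWIST1, -2.75), where 6.36% of all genes were higher and 7.81% lower. Against CHLA 05, CHLA 06 was higher at the same 3 keratins (6.25, 4.67 and 6.50) and lower at CDH1 (-3.68), ZEB1 (-3.13) and TWIST1 (-2.79), where 5.11% of all genes were higher and 8.05% lower. CHLA 05 exceeded CHLA 04 at CDH1 (3.73) and at no other of the 10, where 4.25% of all genes were higher and 2.62% lower.

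The differences of CHLA 02 followed its intermediate place. It exceeded CHLA 04 at the 3 keratins (KRT8 by 5.61, KRT18 by 4.61 and KRT19 by 5.54) and was below it at none, where 4.61% of all genes were higher and 1.03% lower. Against CHLA 05 it was higher at the 3 keratins (5.71, 4.57 and 5.39) and lower at CDH1 (-3.75), where 4.55% of all genes were higher and 4.17% lower. Against CHLA 06 it was higher at ZEB1 (3.70), where 3.84% of all genes were higher and 0.263% lower. In all, 20 of 60 differences passed 4-fold, and 12 of 30 without CHLA 02, in either case from the same 6 genes. The pairs share libraries and are not independent of each other.

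**Figure D4:**
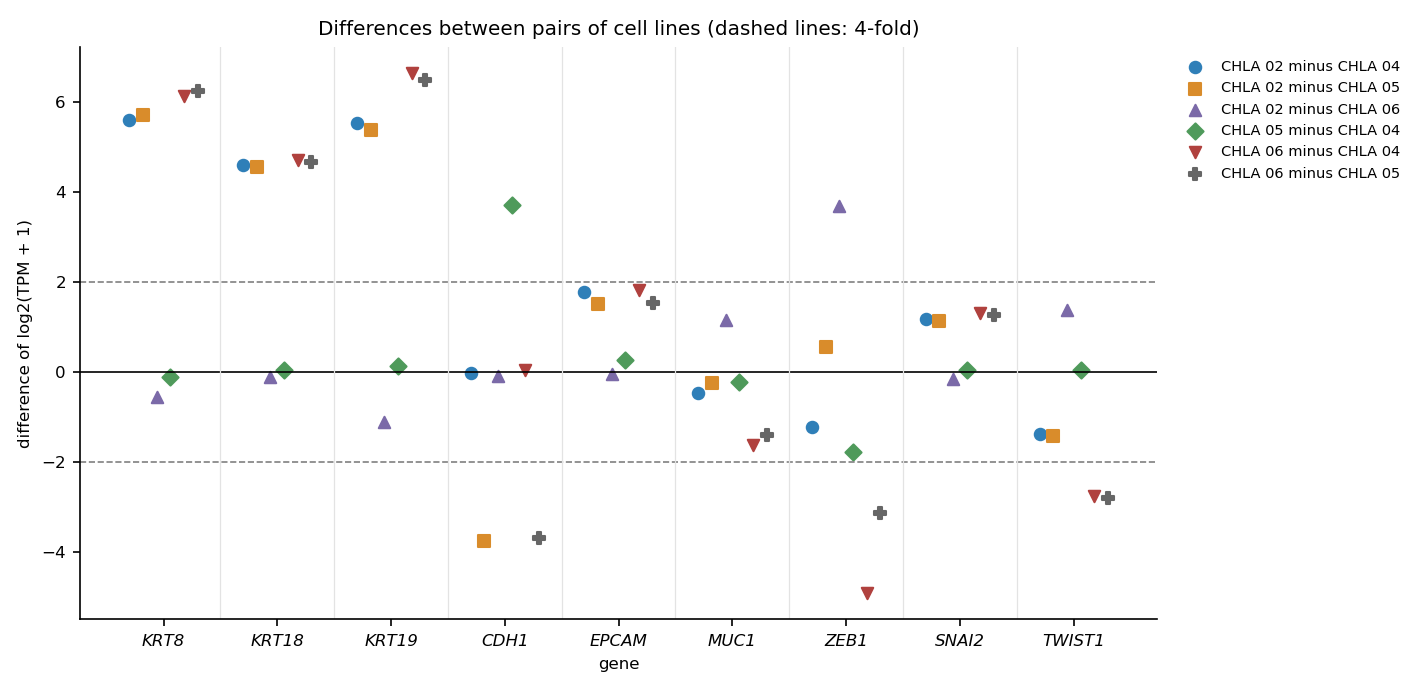
Difference of log2(TPM + 1) between the means of 2 cell lines (markers, 6 pairs) for the 9 genes with reads, with 4-fold as dashed lines. KRT8, KRT18 and KRT19 lie above 4 in all 4 pairs of CHLA 02 or CHLA 06 against CHLA 04 or CHLA 05, and EPCAM, MUC1 and SNAI2 stay within 4-fold in every pair.

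The genes around these markers were described by lists. Of 38 other epithelial junction, polarity and surface genes, 23 reached 1 TPM in a library, and CHLA 06 had 17 of them detected, CHLA 02 had 16, CHLA 05 had 15 and CHLA 04 had 12. CHLA 06 was past 4-fold above CHLA 04 at 5 of these 23 and below it at 2, beside 6.36% and 7.81% of all genes tested. The median over all 38 was 0.075 on the log2(TPM + 1) scale, beside -0.22 over all genes tested. All genes tested had 1 TPM or more in a library. Counts of a list, here and below, therefore compare over its genes that reached that level, while list medians cover the whole list. SPINT2, a protease inhibitor of epithelial surfaces, was at 79.7 TPM in CHLA 02, 1.31 and 0.161 for the CHLA 04 replicates, 0.897 for CHLA 05, and 160 and 143 for the CHLA 06 replicates. It was high in the lines with KRT19.

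Other genes of that list had other orders. ITGB4, the integrin of hemidesmosomes, was at 35.4 TPM in CHLA 05 and at most 0.546 in every other library. MARVELD2, a tight junction protein, reached 33.0 and 32.4 TPM in the CHLA 04 replicates, 8.86 in CHLA 02 and 2.85 in CHLA 05, but 0.268 and 0.107 for CHLA 06. The tight junction genes TJP1 (126 to 170 TPM) and OCLN (92.3 to 265 TPM) were high in every library. Junction genes were therefore not limited to the lines with keratins or CDH1.

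Of 18 regulators of the epithelial state, 7 reached 1 TPM in a library and 4 had no read in any. Among those 7, CHLA 06 was past 4-fold above CHLA 04 at 1 and below it at 1, beside 6.36% and 7.81% of all genes tested. Against CHLA 05 it was above at 2 and below at 4, beside 5.11% and 8.05%. GRHL3, a grainyhead factor of surface ectoderm, was at 7.24 TPM in CHLA 02, 0.112 and 0.222 for the CHLA 04 replicates, 0.0547 for CHLA 05, and 11.7 and 14.0 for the CHLA 06 replicates. KLF4, a zinc finger factor of epithelia and stem cells, was at 69.3 TPM in CHLA 05 and 1.13 to 2.57 elsewhere. TFAP2A, a factor of ectoderm and neural crest, was at 71.1 TPM in CHLA 02, 148 and 130 for the CHLA 04 replicates, 0.0560 for CHLA 05, and 17.3 and 15.6 for the CHLA 06 replicates. The 3 regulators were thus highest in different lines: GRHL3 in CHLA 06, KLF4 in CHLA 05 and TFAP2A in CHLA 04.

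Of 12 further EMT factors, 10 reached 1 TPM in a library. CHLA 06 was past 4-fold above CHLA 04 at 4 and below it at 3, and likewise 4 and 3 against CHLA 05, beside 6.36% and 7.81% of all genes tested for CHLA 04 and 5.11% and 8.05% for CHLA 05. ZEB2, the paralogue of ZEB1, was at 50.03 TPM in CHLA 02, 1.47 and 0.640 for the CHLA 04 replicates, 18.0 for CHLA 05, and 96.1 and 86.5 for the CHLA 06 replicates, so that between CHLA 04 and CHLA 06 it ran opposite to ZEB1. The same held for TWIST2 against TWIST1: TWIST2, named after its values were seen, was at 20.3 TPM in CHLA 02, 2.12 and 2.10 for the CHLA 04 replicates, 0 for CHLA 05, and 16.7 and 21.1 for the CHLA 06 replicates. PRRX1, a homeobox factor of mesenchyme, was at 89.5 TPM in CHLA 02, 7.50 and 6.91 for the CHLA 04 replicates, 3.48 for CHLA 05, and 177 and 178 for the CHLA 06 replicates. SOX9 reached 228 TPM in CHLA 05, against 24.3 and 26.7 for the CHLA 04 replicates, 7.71 for CHLA 02, and 0.0657 and 0.0297 for CHLA 06. TCF3 was at 154 to 357 TPM throughout. CHLA 06 thus had low ZEB1 and TWIST1 beside high ZEB2, TWIST2 and PRRX1.

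**Figure D5:**
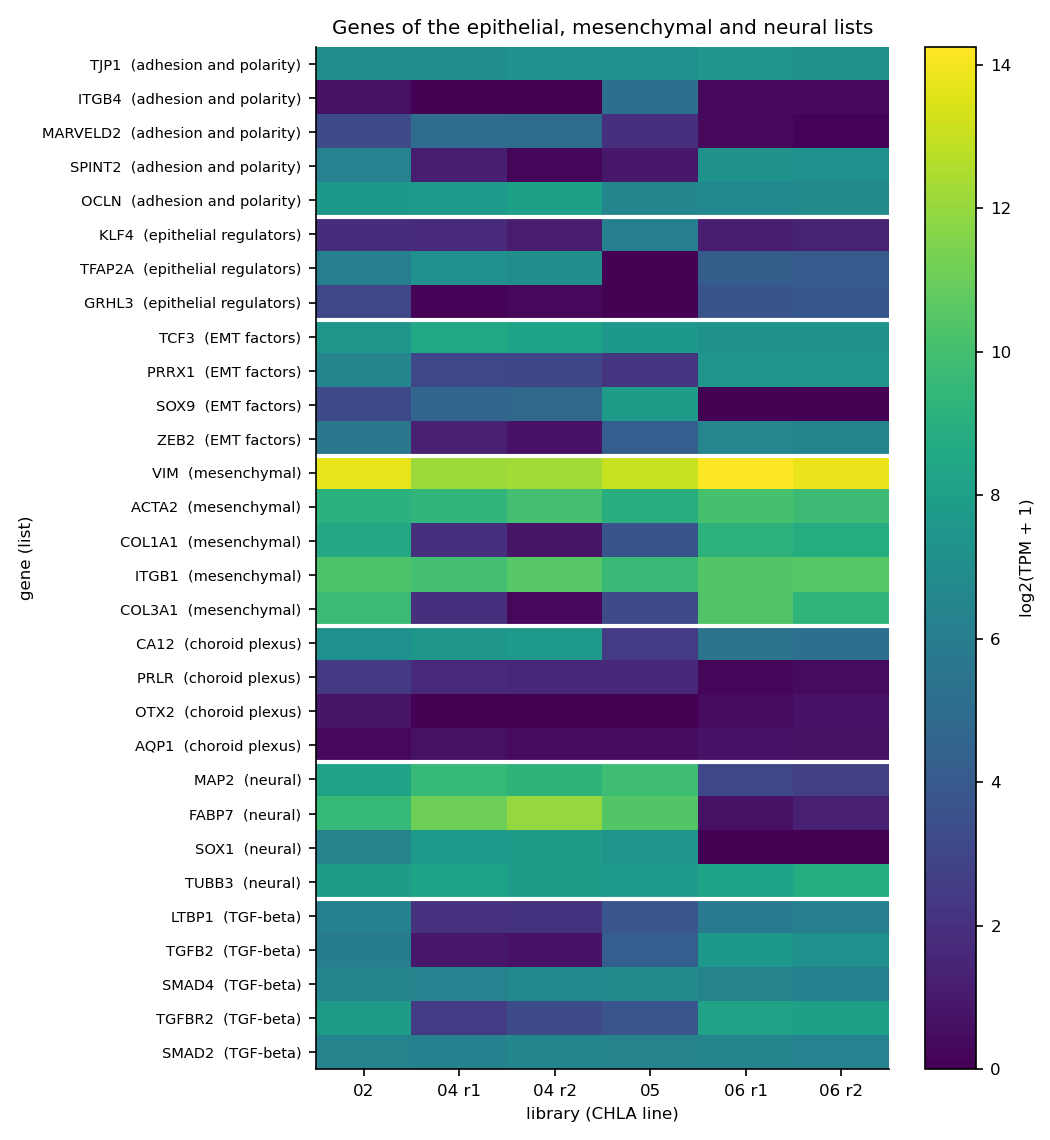
log2(TPM + 1) in the 6 libraries (columns) of the genes named from 7 lists (rows, white lines between lists). SPINT2, PRRX1, ZEB2, COL1A1 and TGFBR2 are high in CHLA 02 and CHLA 06, ITGB4 and KLF4 in CHLA 05, and FABP7 and SOX1 are near 0 in CHLA 06.

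Genes whose levels over the 4 lines lay nearest were sought among 13150 others with 5 TPM or more in a line, by the root mean square distance of log2(TPM + 1) after centring each gene on its mean. This is a description over 4 points and 6 libraries. For KRT8 they were PRAME (0.081), PQLC2L (0.092) and LAYN (0.097), for KRT18 CCDC144B (0.060), PYCARD (0.073) and SLC2A10 (0.095), and for KRT19 SPINT2 (0.079), LHX8 (0.083) and ANO3 (0.10). CDH1 was nearest to ASB9 (0.026), DAPL1 (0.033) and LINC01268 (0.085), each detected in CHLA 05 alone.

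ZEB1 was nearest to SERTAD4-AS1 (0.091), GRIK5 (0.16) and ZNF785 (0.17), and TWIST1 to NETO2 (0.034), FUT8 (0.061) and PNMA6A (0.082). MUC1 was nearest to PGPEP1 (0.042), GEMIN2 (0.042) and TIGD7 (0.051), but 3298 genes lay within 0.5 of it, against 55, 88 and 57 for KRT8, KRT18 and KRT19, 140 for CDH1, 81 for ZEB1 and 450 for TWIST1. Many more genes thus lay near MUC1 than near the keratins, CDH1 or ZEB1.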

How the data were processed

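Total RNA of 4 AT/RT cell lines was sequenced in 6 libraries (Illumina TruSeq Stranded Total RNA, 125 bp paired ends). Per the labels and the study's methods, reads were demultiplexed with CASAVA 1.8.2, checked with FastQC, trimmed with Trimmomatic and mapped in CLCbio Genomics Workbench (its RNA-Seq tool, default settings) to GRCh38. The authors deposited TPM per Ensembl release 82 transcript and, from a separate mapping, TPM per RepeatMasker LTR element, scaled over LTR elements alone. Program versions other than that of CASAVA, and the strand setting of the counting, are not given in the sources used here.

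From the 12 files, TPM was summed by gene identifier (173113 transcripts, 36532 genes), technical replicates were averaged, and reads were recovered as TPM times length over a fixed step, whole within 0.1 for at least 99.8% of transcript values per library. A read is 1 counted read or read pair. Genes with a TPM of 1 or more in a library formed the background of differences of log2(TPM + 1), where 4-fold was the threshold. On this scale changes of low genes are understated. Where a line had 0 reads, 3 reads over its libraries were taken as the limit. Scripts were tested on simulated data and used Python 3.11.15, numpy 2.4.6, pandas 2.3.3, scipy 1.17.1 and matplotlib 3.10.9. Transcript types came from GENCODE 44 and start-site sequences from RefSeq.

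The 10 genes, the gene lists and the thresholds were chosen with earlier results of these data known. Other genes were named by a rule: SMARCB1, the highest pseudogene of a keratin, the 3 genes of each list with the highest mean TPM and the 3 with the widest range, and the 3 nearest in pattern to each of the 10 genes with 5 TPM or more in a line. MX1, TWIST2, TTR, FOLR1, KL, FN1, CDH2, TNC and the genes flanking or overlapping the 10 were named outside it, after their values were seen. Alternatives were other pseudocounts, thresholds and filters, other scalings, sums by gene symbol, the maximum of technical replicates and each technical replicate left out. A further alternative took the most abundant transcript of a gene separately in each library, so the transcript could differ between libraries. Protein_coding transcripts alone and the omission of CHLA 02 were chosen after seeing the data. Some values are not reported here.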

Additional observations from a re-analysis of the deposited data

How the results depend on the processing

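No paired analysis was possible because no result came from a test, and the replicate numbers mark technical replicates of a line. Of the 20 member differences past 4-fold, none reversed among 240 alternative values, 86 values moved by more than the technical spread, and 6 fell under 4-fold, all of them of CDH1. Part of the 240 could not change: each symbol had 1 identifier, so sums by symbol gave the same values. Likewise, the maximum or omission of a technical replicate has no effect on pairs without its line. Some moves were large: KRT8 between CHLA 06 and CHLA 04 ranged from 3.61 (most abundant transcript of each library) to 8.33 (pseudocount 0.1) around 6.15. ZEB1 between the same lines ranged only from -5.13 to -4.42. With the most abundant transcript of each library CDH1 gave -1.42 (CHLA 02 minus CHLA 05), 1.39 (CHLA 05 minus CHLA 04) and -1.36 (CHLA 06 minus CHLA 05). With protein_coding transcripts alone CDH1 gave -1.62, 1.62 and -1.57, so that CHLA 05 and CHLA 04 then differed past 4-fold at 0 genes of the 10. Even so, by share of reads CDH1 stayed at least 28.7-fold higher in CHLA 05 than in CHLA 04. Leaving out any technical replicate moved no count of genes by over 1.5 times. With a pseudocount of 0.1, which weights low genes more, 5 genes passed between CHLA 02 and CHLA 04 and 2 between CHLA 02 and CHLA 06. With a 2-fold threshold, 7, 7 and 4 genes passed for CHLA 02 against CHLA 04, CHLA 05 and CHLA 06, 2 for CHLA 05 against CHLA 04 and 8 for CHLA 06 against CHLA 04. With detection at 5 TPM, 5 genes were detected in CHLA 02. The share of all genes at these other settings is not given, so these counts cannot be set against a background and describe the 10 genes only. Without CHLA 02, 12 differences remained past 4-fold. Size factors moved the median of all genes between CHLA 06 and CHLA 04 from -0.22 to -0.0077 on the log2(TPM + 1) scale. EPCAM, SNAI2 and TWIST1 in its low line rest on few reads, and depth there limits any order to that shown by the intervals.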

Other observations

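Genes of the mesenchymal state were detected in all lines and differed in their order over the lines. Of 22 listed, 21 reached 1 TPM in a library, and CHLA 06 was past 4-fold above CHLA 04 at 8 and below it at 3 (6.36% and 7.81% of all genes tested), with a list median of 0.66 on the log2(TPM + 1) scale beside -0.22 over all genes. VIM (vimentin) was at 4629 to 19464 TPM, ITGB1 at 793 to 1479 and ACTA2 (smooth muscle actin) at 495 to 1081 in every library. COL1A1 was at 387 TPM in CHLA 02, 2.76 and 0.679 for the CHLA 04 replicates, 11.5 for CHLA 05, and 600 and 459 for the CHLA 06 replicates. COL3A1 was at 841 TPM in CHLA 02, between the CHLA 06 replicates (1332 and 628), and at 2.91 and 0.231 for the CHLA 04 replicates, so both collagen genes were high in the lines with keratins and the order of CHLA 06 and CHLA 02 at COL3A1 turned with the replicate. Other genes of the list, named after their values were seen, ran the other way. FN1 (fibronectin) was at 67.5 TPM in CHLA 02, 202 and 265 for the CHLA 04 replicates, 581 for CHLA 05, and 7.59 and 4.17 for the CHLA 06 replicates. CDH2 (N-cadherin) was at 19.7 TPM in CHLA 05, 8.69 and 10.4 for the CHLA 04 replicates and under 1 in CHLA 06, and TNC (tenascin C) was at 6.19 and 9.12 for the CHLA 04 replicates and 0.0609 and 0.113 for those of CHLA 06.

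All 12 ligands, receptors and mediators of the transforming growth factor beta pathway reached 1 TPM in a library. CHLA 06 was past 4-fold above CHLA 04 at 4 and below it at 0, beside 6.36% and 7.81% of all genes tested. TGFBR2, the type II receptor, was at 213 TPM in CHLA 02, 4.76 and 8.66 for the CHLA 04 replicates, 12.3 for CHLA 05, and 298 and 260 for the CHLA 06 replicates, and the ligand TGFB2 ranged from 0.616 (CHLA 04) to 191 (CHLA 06). LTBP1 ranged from 3.12 to 75.5 TPM, and the mediators SMAD2 and SMAD4 stayed between 76.3 and 103 TPM in all libraries. Of 13 gene identifiers of neural progenitor and neuronal markers, 12 reached 1 TPM in a library. CHLA 06 was past 4-fold below CHLA 04 at 6 and above it at 0, beside 7.81% and 6.36% of all genes tested. FABP7 was at 756 TPM in CHLA 02, 2236 and 4102 for the CHLA 04 replicates, 1400 for CHLA 05, and 0.566 and 1.43 for the CHLA 06 replicates. SOX1 (81.8 TPM in CHLA 02, at most 0.0455 in CHLA 06) and MAP2 (298 in CHLA 02, 7.20 and 5.41 in CHLA 06) shared that order of the 2 lines. TUBB3, by contrast, was at 205 to 455 TPM in all libraries at its more abundant gene identifier. The other identifier of TUBB3 was at 30.4 TPM in CHLA 02 and 3.55 to 10.5 TPM in the other libraries. Of 10 markers of choroid plexus, an epithelium of the brain with keratins, 2 reached 1 TPM: CA12, highest in CHLA 04 (185 and 196 TPM), and PRLR (0.134 to 4.33 TPM). TTR, FOLR1 and KL had 0 reads in every library, and AQP1 and OTX2 stayed under 1 TPM. The summed list was at 39.8 to 44.9 TPM in CHLA 06, 188 to 199 in CHLA 04 and 146 in CHLA 02. It was lowest in CHLA 05, at 7.54 TPM. CA12 alone gave most of the sum in every library, with 140 TPM in CHLA 02 and 42.9 and 37.6 for the CHLA 06 replicates. The sum therefore describes mainly CA12 and not the list as a whole.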
